A study of Homo sapiens with 16 samples.

Results

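The DoGs described here are 271 long readthrough transcripts that were listed in HEK293 cells (an established human line of embryonic kidney origin) after treatment with sorbitol and cycloheximide together, in RNA preparations able to release poorly soluble RNA. They were chosen by 5 criteria. The gene was listed as DoG-producing in both replicates of hiAGPC and in both replicates of the SERIPH 2nd-step fraction under stress. It was not listed in both replicates of conventional extraction or in both replicates of the SERIPH 1st-step fraction under stress, it was listed in none of the 8 control libraries, and it had an FPKM value. Its region averaged at least 100 kb over the 2 SERIPH 2nd-step libraries under stress. Of the 3139 genes with FPKM, 867 met the listing criteria, and 271 of these (31.3%) reached 100 kb, which left 596 shorter DoGs chosen by the same listings. Listing, length and level under stress therefore chose the members or went with what chose them, and all values under stress that set the SERIPH 2nd step or hiAGPC against another preparation, or stress against control, are given as a description. Where counts past a limma threshold are printed for such contrasts, they describe members chosen on the same values and are no evidence about them.

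Cells were left in plain medium (control) or given 200 mM sorbitol, which draws water from the cell, and the translation inhibitor cycloheximide at 100 μg/mL in the same medium for 9 h (stress). The agents were given together, so their effects cannot be told apart. RNA was prepared in 4 ways: by conventional acid guanidinium-phenol-chloroform (AGPC) extraction, by hiAGPC, in which heating of the lysate brings more RNA into the aqueous phase, and by SERIPH, which takes the ordinary aqueous phase as its 1st-step fraction and then washes, heats and re-extracts the interphase as its 2nd-step fraction. Each preparation had 2 replicates per condition, which gave 16 stranded libraries of rRNA-depleted RNA in 8 groups, and the 2nd-step libraries were made from less RNA than the 1st-step libraries. The depth of each library is unknown, because only region lists and FPKM (fragments per kilobase of region and sequencing depth of the library) rounded to 0.01 were analysed. FPKM is relative to the other RNA in the same library, so a higher value can stand for more DoG RNA or for less of other RNA. The line's own marker genes are outside a table of DoGs and were not checked.

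DoGs (downstream-of-gene transcripts) arise when RNA polymerase II does not terminate after the polyadenylation site and carries on into the DNA past the gene. Normally the AAUAAA hexamer and a downstream U- or GU-rich element recruit the cleavage and polyadenylation machinery, the RNA is cut, and the polymerase is released soon afterwards. Osmotic stress, heat shock and viral infection are known to weaken this step, and the RNA that results is unspliced over long stretches and stays in the nucleus. RNAs that resist ordinary extraction are called semi-extractable, and many of them belong to nuclear bodies.

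The ends of 5 long DoGs are shown as they stand in the genome. These are the longest members, outside chromosomes 8 and 18, whose region crossed no other annotated coding or lncRNA gene on its strand. The letters thus belong to nothing else known on that strand. The first 100 bases past the gene end of each, and the last 100 bases of the longest region listed for COX18 and RBM26, are given from GRCh38, 5′ to 3′ on the strand of the gene, and capitals mark either polyadenylation hexamer (AATAAA or its variant ATTAAA) or a GU-rich string (TGTGT). None of these stretches overlapped an exon of GENCODE v44 on that strand.
COX18, first 100 bases, chr4:73052262-73052361, minus strand: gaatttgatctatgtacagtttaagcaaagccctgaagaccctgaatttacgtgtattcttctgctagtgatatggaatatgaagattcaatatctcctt
COX18, last 100 bases, chr4:72672362-72672461, minus strand: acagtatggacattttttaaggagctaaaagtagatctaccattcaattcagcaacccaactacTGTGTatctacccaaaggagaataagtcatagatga
ZKSCAN2-DT, first 100 bases, chr16:25355764-25355863, plus strand: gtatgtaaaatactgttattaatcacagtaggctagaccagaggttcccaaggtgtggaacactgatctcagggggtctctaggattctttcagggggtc
RBM26, first 100 bases, chr13:79311724-79311823, minus strand: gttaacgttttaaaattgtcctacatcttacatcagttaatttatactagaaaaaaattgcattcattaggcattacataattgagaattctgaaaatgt
RBM26, last 100 bases, chr13:78921824-78921923, minus strand: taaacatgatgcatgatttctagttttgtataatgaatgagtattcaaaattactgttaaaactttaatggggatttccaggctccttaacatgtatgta
ATP1B3, first 100 bases, chr3:141926550-141926649, plus strand: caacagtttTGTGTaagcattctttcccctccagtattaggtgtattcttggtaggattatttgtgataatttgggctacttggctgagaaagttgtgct
ABHD5, first 100 bases, chr3:43734372-43734471, plus strand: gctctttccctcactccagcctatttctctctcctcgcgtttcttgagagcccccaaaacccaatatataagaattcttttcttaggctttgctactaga

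A TGTGT stood in the first 100 bases of ATP1B3 (a beta subunit of the sodium-potassium pump) and in the last 100 bases of COX18 (an insertase of the inner mitochondrial membrane). The first 100 bases of COX18, ABHD5 (a lipase co-activator), RBM26 (an RNA-binding protein) and ZKSCAN2-DT (a lncRNA) had none of the strings, nor did the last 100 of RBM26. In all 271 long DoGs, the first 100 bases held a TGTGT on the sense strand in 25.8% and on the antisense strand in 7.75%, against 22.2% and 9.54% over 3135 DoGs with FPKM and a listed region. The last 50 bases of the gene held AATAAA in 48.7% of the long DoGs and ATTAAA without AATAAA in 16.2%, against 51.3% and 15.6% of the shorter DoGs and 52.1% and 13.6% of all DoGs. A match is a string of letters and not a site shown to be used, and these shares were not tested.

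Within the first 100 kb past the gene end, AATAAA and ATTAAA together occurred at a median of 1.32 per kb on the sense strand and 1.48 per kb on the antisense strand in the long DoGs. The same medians were 1.43 and 1.49 in the shorter DoGs and 1.35 and 1.44 in all DoGs. The sense strand held fewer than the antisense strand in 65.7% of the long, 58.3% of the shorter and 56.5% of all DoGs. In the first 10 kb alone, where both sets are transcribed, the medians were 1.1 sense and 1.3 antisense in the long DoGs and 1.3 sense and 1.2 antisense in the shorter ones. GC content over 100 kb had medians of 45.2% in the long, 44.8% in the shorter and 45.2% in all DoGs. In the long DoGs, the quartiles of hexamers on the sense strand over 100 kb were 0.96 and 1.66 per kb. Differences between the sets were not tested.

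The long DoGs came from 247 protein-coding genes, 21 lncRNA genes and 3 genes absent from GENCODE v44. Together their longest regions spanned 61.9 Mb, and no region overlapped that of another member on its strand. RPS29, which encodes a protein of the small ribosomal subunit, had the longest region, which under stress measured 915 and 985 kb in the SERIPH 2nd step and 895 kb in either hiAGPC library. It ran over chr14:48585984-49570983 on the minus strand. TBL1XR1, a subunit of the nuclear corepressor complex, followed with 570 and 595 kb in the 2nd step and 485 kb in both hiAGPC libraries. KDM6A, a demethylase of histone H3, had 515 and 575 kb against 540 and 490 kb, so that its lengths in the preparations overlapped. PABPC1, the main cytoplasmic poly(A)-binding protein, had 553.757 kb in either 2nd-step library, against 347.934 and 538.757 kb in hiAGPC. The kinase DYRK1A had 480 and 505 kb against 424.344 and 425 kb. TOMM20, a receptor for import into mitochondria, had 480 and 496.999 kb against 420 and 316.999 kb. Each of these 6 regions was also over 100 kb in both hiAGPC libraries.

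Others of the 10 longest differed between replicates or between preparations. EIF3A, a core subunit of translation initiation factor 3, had 663.673 kb in 1 SERIPH 2nd-step library and 275 kb in the other, and 245 and 210 kb in hiAGPC. The gene ENSG00000293382.1 had 432.962 and 577.962 kb in the 2nd step and 420 and 90 kb in hiAGPC. IFT52, a part of the transport machinery of cilia, had 525 and 540 kb in the 2nd step but only 15 and 10 kb in hiAGPC. PPP2CA, a catalytic subunit of protein phosphatase 2A, had 473.468 and 475.043 kb against 15 kb in both hiAGPC libraries. For IFT52 and PPP2CA the 2 preparations were far apart and the replicates within each were close.

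The threshold ran through a dense part of the distribution. Mean lengths were under 150 kb in 114 members, at least 200 kb in 97 and at least 300 kb in 45, and 8 members averaged exactly 100 kb. Among these 8, NUTM2B-AS1 had 100 kb in both 2nd-step libraries, PGK1 (phosphoglycerate kinase) had 120 and 80 kb, and FAM171A2 had 50 and 150 kb. Just below the threshold were the helicase BRIP1 with 70 and 128.718 kb, and BCL2L11, EIF5B and CDAN1, each with a mean of 97.5 kb. Both 2nd-step regions reached 100 kb in 224 members, and 1 of them fell short in 47.

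Under stress the long DoGs had median listed lengths of 160 and 180 kb for the SERIPH 2nd step, against 90 and 75 kb for hiAGPC. Over members, the replicate means had a median of 165 kb in the 2nd step and 85 kb in hiAGPC, and the median ratio was 1.91. Every 2nd-step region exceeded every hiAGPC region of the same gene in 194 of 271 members (71.6%), both were shorter in 3, and the lengths overlapped in 74. Over all 1287 DoGs listed in these 4 libraries, both 2nd-step regions were longer in 45.9% and both shorter in 2.87%. As the members were chosen for their length in the 2nd step, nothing is read from the difference between these shares. The 596 shorter DoGs had medians of 37.5 kb in the 2nd step and 22.5 kb in hiAGPC, and both 2nd-step regions were longer in 35.6% of them.

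**Figure D1:**
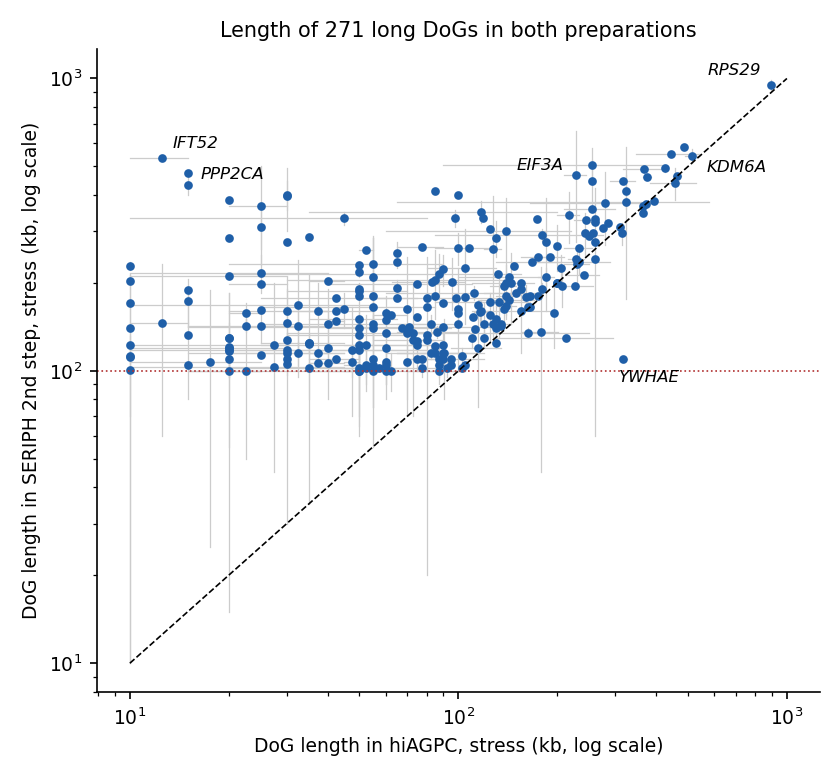
DoG length under stress in hiAGPC (x) and in the SERIPH 2nd step (y), in kb on log scales, for the 271 long DoGs. Points are means of 2 replicates, grey lines join the replicates, the dashed line marks equal length and the dotted line 100 kb. Most points lie above the dashed line, IFT52 and PPP2CA far above it and YWHAE below it.

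The largest ratios of length belonged to IFT52 (42.6), PPP2CA (31.6) and EIF2A (28.8), the last with 400 and 465 kb in the SERIPH 2nd step and 15 kb in both hiAGPC libraries. The lowest ratio was that of YWHAE, which encodes 14-3-3 epsilon and had 110 kb in both 2nd-step libraries but 325 and 310 kb in hiAGPC (ratio 0.346). TSPAN13, a tetraspanin, had 130 kb in each 2nd-step library, against 295 and 130 kb in hiAGPC (0.612), and ARHGAP12, a GTPase-activating protein, had 45 and 225.988 kb against 200.988 and 155 kb (0.761). Of these 3, only YWHAE had hiAGPC regions that were both longer than both 2nd-step regions. In hiAGPC, 113 members averaged at least 100 kb, 108 lay between 30 and 100 kb, and 50 averaged at most 30 kb.

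Replicates were closer in hiAGPC than in the 2nd step. The 2 regions had the same length in 127 members (46.9%) in hiAGPC and in 56 (20.7%) in the SERIPH 2nd step, and the median replicate difference was 5 and 15 kb. Replicate 2 was the longer in 147 members in the 2nd step, whereas replicate 1 was the longer in 103 in hiAGPC, and the largest replicate differences were 405 kb and 516.222 kb. A length is thus often uncertain by several windows of the caller, which extended a region by 5 kb at a time until coverage failed.

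In the aqueous preparations, few of these DoGs were listed at all under stress, which the rule in part required. No conventional or 1st-step library listed 234 of the 271, and 37 were listed in at least 1 (23 in conventional and 21 in the SERIPH 1st step). Of these 44 listings, 40 were of 10 or 15 kb. The longest was 65 kb, for TRAF4, an adaptor of receptor signalling, in 1 conventional library, where the SERIPH 2nd step had 401.627 and 400.111 kb and hiAGPC 100 kb in both libraries.

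The level over the region showed a different picture from the listed length. Each FPKM covered a single region per gene, which for 255 of 271 members had the length of its longest listed region to within 1 bp, and for the other 16 was longer by 2.64 to 190 kb. Median FPKM of the long DoGs was 0.02 to 0.04 in the 8 control libraries, 0.16 to 0.18 in the aqueous preparations under stress, 1.01 and 0.98 in hiAGPC, and 1.54 and 1.56 in the SERIPH 2nd step. Over all 3139 DoGs, the medians under stress were 0.14 to 0.16 in the aqueous preparations, 0.58 in either hiAGPC library, and 0.86 and 0.84 in the 2nd step. No member was below 0.79 in a 2nd-step library under stress. Absence from the control lists was part of the rule, and the low control values go with it.

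**Figure D2:**
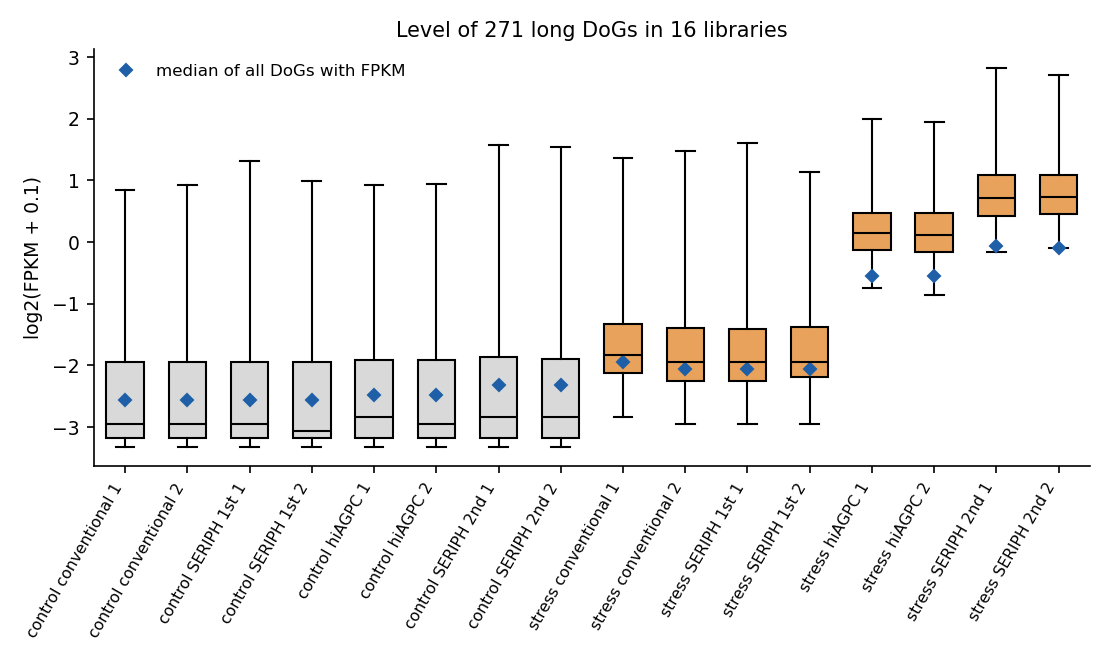
Level of the 271 long DoGs in each of the 16 libraries, as log2(FPKM + 0.1). Boxes show quartiles and median, whiskers the full range, and diamonds the median of all 3139 DoGs. The median of the members lies below that of all DoGs in the control libraries and above it in hiAGPC and the SERIPH 2nd step under stress.

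The highest level under stress was that of DAPK3, a kinase linked to cell death, with 6.96 and 6.46 FPKM in the SERIPH 2nd step, 3.22 and 2.89 in hiAGPC, 0.52 and 0.46 in the 1st step, and 0.36 and 0.38 in conventional RNA. TRAF4 had 6.51 and 6.24 in the 2nd step, 3.88 and 3.77 in hiAGPC, and 0.46 to 0.51 in the aqueous preparations. USP11, a deubiquitinase, had 5.82 and 5.58 in the 2nd step, 3.3 and 3.11 in hiAGPC, and 0.14 or 0.15 in the 4 aqueous libraries. The kinase PIM3 had 5 and 5.12 in the 2nd step and 2.95 and 2.71 in hiAGPC, and YWHAE had 5.17 and 4.91 against 2.05 and 1.79. In all 5, the values of the 2nd step lay above those of hiAGPC and these above the aqueous ones, without overlap. RPS29, the longest, had 3.4 and 3.5 FPKM in the 2nd step, 2.52 and 2.48 in hiAGPC, 0.33 and 0.35 in the 1st step and 0.46 and 0.41 in conventional RNA.

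Members listed short in hiAGPC had lower levels in hiAGPC over their full region, and lower levels in the SERIPH 2nd step as well. Under stress, median FPKM in hiAGPC was 0.82 in the 50 members listed there at 30 kb or less, 0.878 in the 108 members between 30 and 100 kb, and 1.23 in the 113 members of at least 100 kb. In the 2nd step the same classes had medians of 1.33, 1.45 and 1.89 FPKM. Per member, the ratio of mean FPKM in the SERIPH 2nd step to that in hiAGPC had a median of 1.66, 1.63 and 1.55 in these classes. Over all members the median was 1.61, with a range of 0.895 to 2.63. IFT52, whose listed lengths differed 42.6-fold, had 2.82 and 2.89 FPKM in the 2nd step and 1.74 and 1.7 in hiAGPC. PPP2CA had 2.9 and 3.01 against 1.94 and 1.88, and EIF2A 1.46 and 1.5 against 1.1 and 1.12. YWHAE, whose listed length in the 2nd step was 0.346 of that in hiAGPC, had the largest log2 difference in level toward the 2nd step. It was 1.35 ± 0.11 (SE from the spread in all 16 libraries, n = 2 per group). The order of the preparations by level and by listed length could therefore differ for the same gene.

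**Figure D3:**
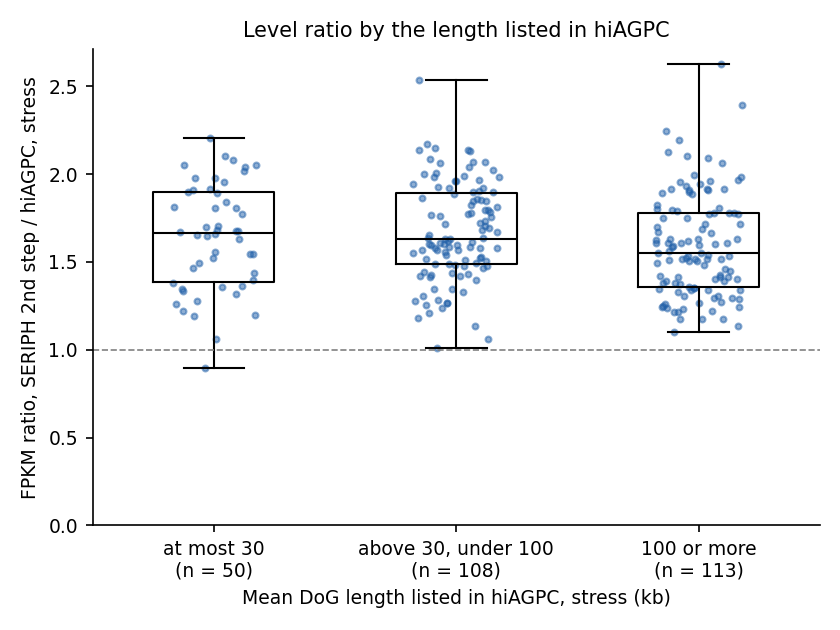
Ratio of mean FPKM under stress, SERIPH 2nd step over hiAGPC, for the 271 long DoGs by the mean length listed in hiAGPC. Boxes show quartiles and median, whiskers the full range, points single DoGs, and the dashed line equal levels. The medians of the 3 classes were 1.66, 1.63 and 1.55.

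For tests, log2(FPKM + 0.1) of all 16 libraries entered a limma model, a scale on which changes of low values come out too small. A DoG was called where the Benjamini-Hochberg adjusted p was under 0.05 and the log2 fold change was 1 or more in either direction. Under stress, where the contrasts chose the members, 260 of the 271 were called higher in the SERIPH 2nd step than in the 1st step (79.3% of all DoGs) and 0 lower (2.96%), and the median log2 fold change was 2.62. For hiAGPC against conventional RNA, 248 were called higher (68.8%) and 0 lower (0.478%), around a median of 1.99. The 2nd step against hiAGPC gave 13 called higher (6.91%) and 0 lower (1.75%), around a median of 0.64, and both 2nd-step values lay above both hiAGPC values in 268 members (79.3%). That count of 13 became 20 without replicate 1 of stress hiAGPC and 6 without its replicate 2. Stress against control gave 260 called higher in the 2nd step (74.6%), 249 in hiAGPC (70.2%), 83 in the 1st step (21.6%) and 96 in conventional RNA (22.2%), with medians of 3.44, 2.86, 0.80 and 0.85. Called lower under stress were 0 in the 2nd step (11.7%), 0 in hiAGPC (9.14%), 2 in the 1st step (10.6%) and 2 in conventional RNA (11%). The shares of all DoGs in parentheses are the background, and nothing is read from them where the rule used the contrast.

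These shifts include one shared by DoGs at large. Centring each library on the median of its 3139 DoGs removed 1.98 of log2 from every DoG in the 2nd step against the 1st step under stress. It removed 1.44 in hiAGPC against conventional RNA and 0.48 in the 2nd step against hiAGPC. As the medians were taken over DoGs alone, a change of DoGs as a class and an offset of the library cannot be told apart. The medians of the long DoGs relative to these medians were then 0.64, 0.54 and 0.16. After centring, 65 members were called higher and 11 lower in the 2nd step against the 1st step, beside 211 and 639 of all 3139 DoGs. For hiAGPC against conventional RNA, 38 members were called higher and 7 lower, beside 111 and 502 of all DoGs. For the 2nd step against hiAGPC, 0 members were called in either direction, beside 0 higher and 116 lower of all DoGs. As above, nothing is read from these counts, since the rule used the contrasts.

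The 11 members not called between the SERIPH steps under stress had other coding genes on the same strand in their regions, as had 54.6% of all members. Of the 148 members with such a gene, 137 were called higher (92.6%). The rule used this contrast, and nothing is read from these counts. KHDRBS1, an RNA-binding protein, had 1.62 and 1.41 FPKM in the 2nd step and 1.86 and 1.81 in the 1st step under stress, and its region held TMEM39B and KPNA6. HSPA9, the mitochondrial HSP70, had 1.26 and 1.21 against 1.34 and 1.6, and its region held ETF1. TULP4 had 1.54 and 1.5 against 1.36 and 1.34, and in control cells 2.51 and 2.43 in the 2nd step, and its region held TMEM181. Reads of a gene inside a region on the same strand can count toward the FPKM of the DoG. What part they had in these values was not tested.

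Most long regions held other genes. The longest region crossed another coding gene on the same strand in 148 members (54.6%), other lncRNA genes alone in 77, and no other coding or lncRNA gene in 46. The regions of the shorter DoGs crossed a coding gene on the strand in 26.5% and those of all DoGs in 20.7%, over regions that were shorter. In the 148 members, median FPKM in control cells was 0.125 to 0.14 across the 8 libraries, and up to 2.89. In the 46 members free of other genes it was 0.01 or 0.02, with 0.2 as the highest value in any control library. Under stress the same 46 had medians of 1.23 and 1.26 in the SERIPH 2nd step, 0.905 and 0.875 in hiAGPC, 0.11 and 0.12 in the 1st step and 0.15 and 0.12 in conventional RNA. Between the SERIPH steps under stress, a contrast that the rule used, their log2 fold changes ran from 2.04 to 3.74, with a median of 2.66.

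COX18 is an example free of other genes. It had 1.22 and 1.23 FPKM in the SERIPH 2nd step under stress, 0.89 in either hiAGPC library, 0.11 and 0.13 in the 1st step and 0.16 and 0.14 in conventional RNA, and 0 to 0.01 in the 8 control libraries. ABHD5 had 2.03 and 1.97, 1.28 and 1.3, 0.26 and 0.28, and 0.3 and 0.27 in the same order, and 0 to 0.02 in control. ATP1B3 had 1.45 and 1.35 in the 2nd step and 1.15 and 1.1 in hiAGPC, with listed lengths that overlapped (200 and 265 kb against 210 and 250 kb). RBM26 was listed at 160 and 390 kb in the 2nd step and at 185 kb in both hiAGPC libraries, with 1.18 and 1.23 FPKM against 0.99 in both. In all of these the 2nd step was above hiAGPC and hiAGPC above the aqueous preparations.

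The next coding gene on the same strand lay far away for many long DoGs. Its start was a median of 118.6 kb past the beginning of the region, with quartiles of 39.2 and 326.6 kb, against medians of 59.5 kb for the shorter DoGs and 80.1 kb for all. Another coding gene on the same strand overlapped the first 100 kb, wherever it began, in 45.8% of the long, 65.3% of the shorter and 55.5% of all DoGs. On the opposite strand an annotated coding gene was met there in 60.9%, 75.3% and 69.3%. The distributions overlapped widely and were not tested. RPS29 had 1895 kb to its next coding gene, TBL1XR1 3878 kb and KDM6A 1335 kb, while PPP2CA had 17.0 kb, IFT52 19.7 kb and PABPC1 22.4 kb and their regions ran through those genes. The genes themselves had a median length of 37.3 kb, against 30.2 kb for the shorter and 31.9 kb for all DoGs.

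**Figure D4:**
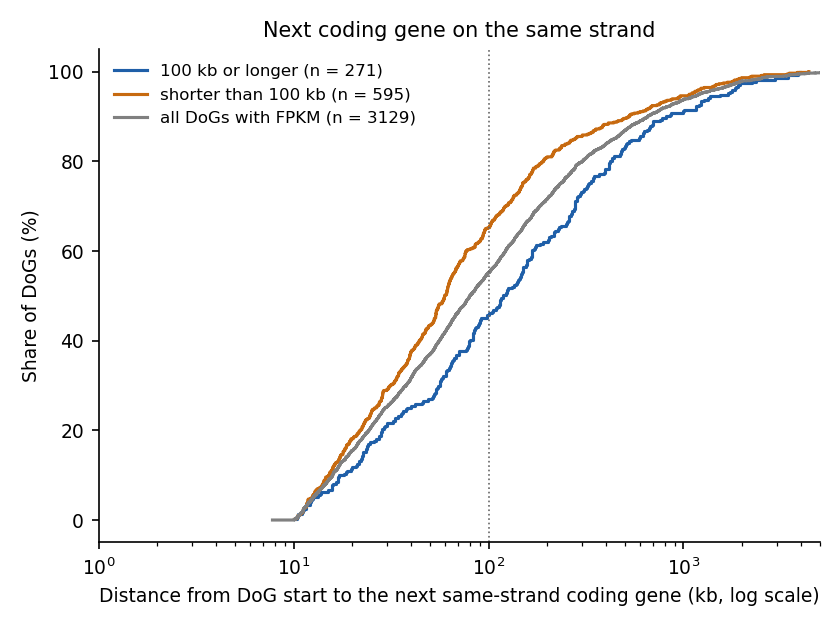
Share of DoGs (y, %) whose next coding gene on the same strand starts within a given distance of the DoG start (x, kb, log scale), for the 271 long, the shorter and all DoGs, with 100 kb dotted. The median distances are 118.6, 59.5 and 80.1 kb.

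In 17 members the gene itself began inside the 2nd-step stress region of another gene on the same strand (6.27%, against 4.70% of the shorter and 3.09% of all DoGs). IFT52 began inside the region of SRSF6, STAU2 inside that of ELOC, ITSN1 inside that of SON, RFC1 inside that of RPL9 and ARHGAP12 inside that of KIF5B. For these genes a region past the gene end and transcription that came in from upstream cannot be told apart from the lists. IFT52 had 0.83 and 0.84 FPKM in the SERIPH 1st step under stress and 0.44 to 0.58 in the 1st step in control cells, whereas ARHGAP12 had 0.14 and 0.12 under stress and 0.01 in control.

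Comparisons within control cells set control libraries against each other, but their p-values and SE drew on the spread in all 16 libraries, stress included. In most members FPKM was measured over a region whose length came from the stress lists. The rule kept out every gene listed in a control library, also those listed in the control 2nd step or hiAGPC. Genes enriched there without stress could be lost through the rule. The comparison of the SERIPH 2nd step with the 1st step in control cells thus describes the genes that were left. It cannot show how often DoGs are enriched in the 2nd step without stress. Of the 271 long DoGs, 9 were called higher in the 2nd step (3.32%, against 11% of all DoGs) and 9 lower (3.32%, against 3.28%). Members had lower control levels than all DoGs, with medians of 0.04 against 0.1 FPKM in either 2nd-step library. With 0.1 added to every value, such low values seldom reach a log2 fold change of 1. Nothing is therefore read from the smaller share called higher. The median log2 fold change was 0.14 in the members and 0.17 in all DoGs. At the adjusted p-value alone, 90 were higher (33.2%, against 36.2%) and 32 lower (11.8%, against 10.3%). The 596 shorter DoGs had 26 called higher and 17 lower. The count depended on the pseudocount, since 26.6% of the members were called in either direction with 0.01 and 0.738% with 1, in place of 6.64%. After each library was centred on the median of its DoGs, 4 members were called higher and 14 lower. This took 0.23 from every value in this comparison, and 22.2% of the calls were higher in place of 50%. Over all 3139 DoGs, centring changed the calls from 344 higher and 103 lower to 188 and 158. The 46 members free of other genes gave 0 calls, with 11 higher and 0 lower at the adjusted p-value alone and 15 at an unadjusted p under 0.05. All 46 were under 0.1 FPKM in both control 1st-step libraries, and 45 and 44 were in the control 2nd-step libraries. With 0.1 added, values under 0.1 cannot differ by a log2 fold change of 1, so the 0 was nearly fixed by the scale.

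SMC3, a subunit of cohesin, rose most toward the 2nd step in control cells. It had 2.89 and 2.82 FPKM in the control 2nd step, 0.58 and 0.59 in the 1st step, 1.5 in either hiAGPC library, and 0.61 and 0.6 for conventional RNA. The log2 fold change between the steps was 2.11 ± 0.07 (SE, n = 2 per group, limma adjusted p = 6.6e-10). Its control level in the 2nd step exceeded that under stress, 1.51 and 1.52, and its region held RBM20. SRGAP3, a GTPase-activating protein, had 1.34 and 1.23 against 0.34 and 0.4 in the 1st step (1.56 ± 0.08, limma adjusted p = 3.6e-08). IRS2, an adaptor of the insulin receptor, had 0.33 and 0.28 against 0.04 in both 1st-step libraries (1.53 ± 0.08, limma adjusted p = 5.0e-08), and its region held no other coding gene on the strand but 1 lncRNA gene. In each of these 3, hiAGPC lay between the aqueous preparations and the 2nd step. With the 4 libraries of the contrast fitted alone, the limma adjusted p was 0.0012 for SMC3, 0.0083 for SRGAP3 and 0.0072 for IRS2.

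TLR9, a receptor for unmethylated DNA, fell most in the 2nd step in control cells. It had 0.36 and 0.35 FPKM in the control 2nd step, 2.38 and 1.5 in the 1st step, 1.09 and 1.06 in hiAGPC and 1.58 and 1.56 in conventional RNA, a log2 fold change between the steps of -2.13 ± 0.18 (limma adjusted p = 1.4e-06). LLGL1, a cell polarity scaffold, had 0.19 and 0.15 in the 2nd step against 1 and 0.83 in the 1st step (-1.91 ± 0.10, limma adjusted p = 3.2e-08). FAM171A2 had 0.37 and 0.4 against 2.05 and 1.29 (-1.83 ± 0.16, limma adjusted p = 1.7e-06). The region of TLR9 held RPL29, a ribosomal protein gene, and 3 other coding genes, that of LLGL1 held MIEF2 and SMCR8, and that of FAM171A2 held UBTF, SLC4A1 and SLC25A39. The 1st-step values of TLR9 and FAM171A2 differed widely between replicates, and those of the 2nd step were close. With the 4 libraries of the contrast fitted alone, the limma adjusted p was 0.027 for TLR9, 0.011 for LLGL1 and 0.035 for FAM171A2.

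The other 12 calls ran from 1.01 to 1.34 among those higher and from -1.07 to -1.53 among those lower. Higher were the elongin C gene ELOC, the inner nuclear membrane gene LEMD3, the zinc finger gene ZNF34, SMIM33, ITGB1BP2 and the antisense lncRNA DPH1-AS1. Lower were the ubiquitin ligase HUWE1, the cofilin gene CFL1, the thioesterase gene LYPLA2, PPP2CA, PPP6R3 and the antisense lncRNA ADAMTSL4-AS2. All 18 called regions held another gene on the same strand, and 17 held a coding one. Among all 271 members, 83.0% held another gene and 54.6% a coding one. Regions free of other genes were nearly all under 0.1 FPKM in control cells, where the added 0.1 puts a call out of reach. Nothing is therefore read from the 18. Under stress, where the rule used the contrast, the log2 fold changes between the steps ran from 1.92 to 3.36 in the 9 members called higher in control cells and from -0.49 to 3.09 in the 9 called lower. ADAMTSL4-AS2 had 0.05 FPKM in both control 2nd-step libraries and 0.33 and 0.23 in the control 1st step, but 5.12 and 4.92 in the 2nd step and 0.56 and 0.45 in the 1st step under stress. PPP6R3 was no longer called when the 4 libraries of the contrast were fitted alone (-1.24, limma adjusted p = 0.109). It was also lost without replicate 1 of the control 1st step (-0.81), ZNF34 without replicate 2 of the control 1st step (0.87) or of the control 2nd step (0.99), and DPH1-AS1 without replicate 2 of the control 1st step (0.96).

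**Figure D5:**
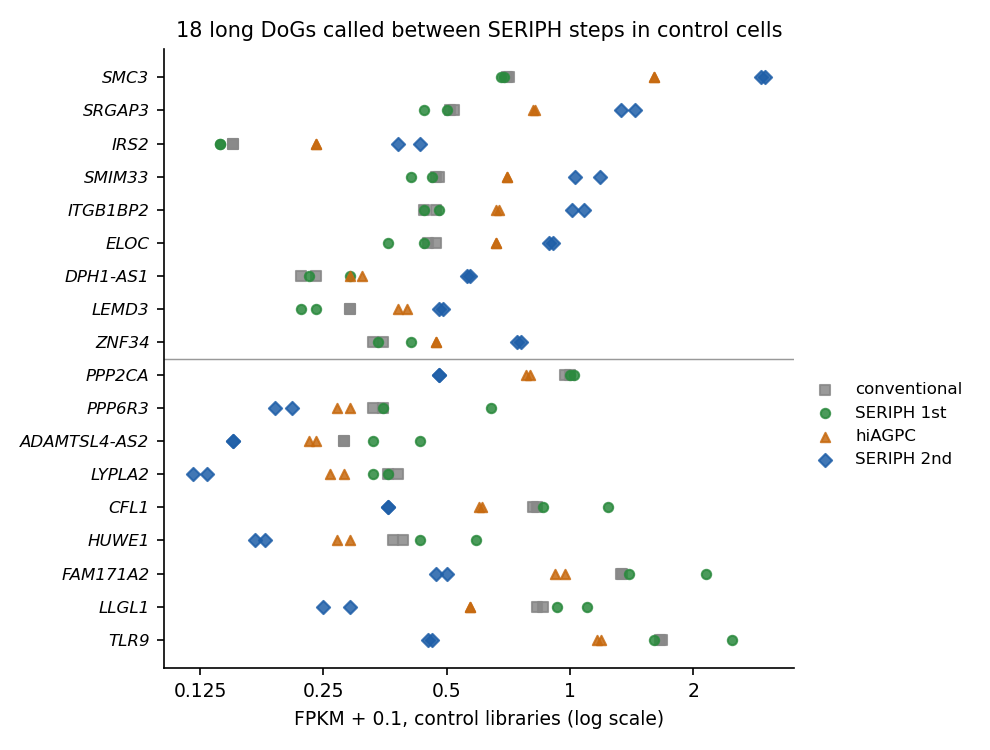
FPKM + 0.1 in the 8 control libraries (x, log scale) of the 18 long DoGs called between the SERIPH steps in control cells, with both replicates of each preparation as points. Above the line are the 9 higher and below it the 9 lower in the 2nd step. Both hiAGPC values lie between those of conventional RNA and of the 2nd step for all 18, which were picked for a difference between the steps. The same count was not made over all DoGs, and nothing is read from it.

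For hiAGPC against conventional RNA in control cells, the comparison by which semi-extractable RNA is defined, 1 member was called higher (0.369%, against 1.08% of all DoGs) and 0 lower (0%). The median log2 fold change was 0.05 in the members and 0.06 in all DoGs. That member was SMC3, at 1.18 ± 0.07 (limma adjusted p = 5.7e-07), and 59 members had an unadjusted p under 0.05 (21.8%, against 25.5% of all DoGs). For the SERIPH 2nd step against hiAGPC in control cells, 0 were called higher (0.86% of all DoGs) and 3 lower (1.11%, against 1.47%), and 102 had an unadjusted p under 0.05 (37.6%, against 37.1%). The 3 were TLR9 (-1.37 ± 0.18, limma adjusted p = 1.9e-04), LYPLA2 (-1.11 ± 0.08, limma adjusted p = 4.8e-06) and LLGL1 (-1.08 ± 0.10, limma adjusted p = 1.6e-05). LYPLA2 had 0.02 and 0.03 FPKM in the 2nd step and 0.18 and 0.16 in hiAGPC, and LLGL1 fell to -0.97 without replicate 2 of the control 2nd step. With the 4 libraries of each contrast fitted alone, the limma adjusted p was 6.6e-04 for SMC3, 0.0016 for TLR9, 0.012 for LYPLA2 and 0.018 for LLGL1. The low control levels of the members and the removal of genes listed in control libraries limit the calls here as well. The comparisons within a condition share libraries.

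The aqueous preparations were compared with each other as well, since the SERIPH 1st step is handled like a conventional extraction. No member was called between them under stress (0% of all DoGs), where 8 were higher (2.95%, against 3.09%) and 6 lower (2.21%, against 3.22%) at the limma adjusted p alone. An unadjusted p under 0.05 was found in 94 (34.7%, against 29.7%). None was called in control cells either (0%), with 29 at an unadjusted p under 0.05 (10.7%, against 11.3%). The log2 fold changes of the 271 ran from -0.43 to 0.56 under stress, with a median of 0, and from -0.34 to 0.48 in control cells, with a median of 0.

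Grouped by function, long DoGs came from genes of many kinds. Of all 3135 genes with FPKM and a region, 8.64% were members. Of 75 genes of cytosolic translation 12 were members (16%), led by RPS29, PABPC1 and EIF3A, and of 73 genes of the ubiquitin system and proteasome 14 were (19.2%), led by the E2 enzyme UBE2N, its partner UBE2V2 and USP11. Kinases and phosphatases gave 10 of 74 (13.5%), with DYRK1A, PPP2CA and the PP2A regulatory subunit PPP2R2A, and membrane trafficking gave 7 of 54 (13.0%), with the sorting nexin SNX5, the vesicle GTPase RAB3A and VPS4A. Solute carriers gave 6 of 40 (15%), with SLC35D2, SLC35B1 and SLCO2B1. Splicing factors and RNA helicases gave 7 of 74 (9.46%), with the helicase DDX3X, SYF2 and RBM26, and DNA replication and repair gave 4 of 42 (9.52%), with RRM2B and RFC1. Mitochondrial ribosome, respiration and import gave 4 of 50 (8%), with TOMM20, COX18 and TIMM29, and chromatin modifiers gave 3 of 34 (8.82%), with KDM6A, CHD2 and EZH2.

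The ZNF zinc finger genes gave 3 of 67 (4.48%), with ZNF281, ZNF34 and ZNF621. Genes of osmotic and heat stress gave 1 of 9 (HSPA9), and those of 3′ end processing and termination 0 of 15, of which 3 were among the shorter DoGs. The lists are small, their shares were not tested, and nothing is claimed as particular to one of them. Listed lengths in the 2nd step and in hiAGPC lay closer together in some lists than in others. Chromatin modifiers had medians of 210 kb in the 2nd step and 185 kb in hiAGPC, and translation genes had medians of 220 kb in the 2nd step and 109 kb in hiAGPC, and ubiquitin genes 172.5 and 57.5 kb. UBE2N had 465 and 455 kb in the 2nd step and 365 and 385 kb in hiAGPC, whereas UBE2V2 had 300 and 495 kb against 30 kb in both. DDX3X had 467.864 and 358.899 kb against 322.864 kb in both, and CHD2 225 and 195 kb against 195 and 175 kb. In control cells, between the SERIPH steps, 1 ubiquitin gene (HUWE1) and 2 of the kinases and phosphatases (PPP2CA and PPP6R3) were called lower, and 1 zinc finger gene (ZNF34) higher, and no member of the other lists was called.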

How the data were processed

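The authors trimmed reads with fastp 0.25.0, filtered ribosomal reads by Bowtie2 2.5.4, mapped what remained to GRCh38 (STAR 2.7.11b, unique matches), and called DoGs per library with ARTDeco on GENCODE v49. They deposited a region list per library and FPKM of DoGs for all 16 libraries, rounded to 2 decimals. Since these are not counts, no count model was used, in place of the DESeq2 tests of the authors. Here log2(FPKM + 0.1) of all 3139 DoGs was fitted with limma 3.58.1 in R 4.3.3, with an intensity trend and Benjamini-Hochberg adjustment per comparison. On simulated data with 200 changed DoGs among 3139, it recovered 200 with 0 false calls in each of 12 comparisons. Recovery of changes close to the call threshold, or at FPKM as low as in the control libraries, was not tested. Lengths, positions and sequences were taken with Python 3.11.15 and pandas 2.3.3 from the lists, GRCh38 and GENCODE v44, and 261 of 268 members found there had a v44 end within 1 kb of the region start. The members, gene lists and comparisons were chosen with earlier results of these data known. Genes described singly are the 10 longest, the 5 highest and those next to the threshold. Also described are the 5 longest free of other genes outside chromosomes 8 and 18, and the 3 calls at either extreme of each comparison. Up to 3 of each gene list and the extremes of the length ratio complete them. A few more were named after their values were seen (the remaining calls between the SERIPH steps in control cells, the members not called under stress and those starting inside another region). The methods state that conventional and hiAGPC extractions were made in parallel on the same samples, and both SERIPH steps come from 1 lysate, but no label ties replicate numbers across preparations. Deviations of same-numbered libraries correlated between -0.07 and 0.06, so the main model had no replicate block. No repeats were marked in the genome sequence used, and repeat content was not analysed here. Some results are not reported here.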

Additional observations from a re-analysis of the deposited data

How the results depend on the processing

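Values are percentages of the 271 long DoGs called, unless stated. With a pseudocount of 0.01 they were 26.6% (6.64% as reported) for the SERIPH 2nd against the 1st step in control cells, 1.11% for hiAGPC against conventional RNA and 5.17% for the 2nd step against hiAGPC in control cells, 9.96% for the 2nd step against hiAGPC under stress, and 69.7% for stress against control in both the 1st step and conventional RNA. With a pseudocount of 1 they were 0.738%, 0%, 0% and 0.369% in the same order for the first 4, 14.4% for hiAGPC against conventional RNA under stress, and 32.8%, 0% and 0% for stress against control in hiAGPC, the 1st step and conventional RNA. Centring each library on the median of its DoGs gave 28% for the 2nd against the 1st step, 16.6% for hiAGPC against conventional RNA and 0% for the 2nd step against hiAGPC under stress. It gave 55%, 8.86% and 11.8% for stress against control in hiAGPC, the 1st step and conventional RNA. A larger pseudocount compresses changes of low values by construction. The adjusted p-value alone gave 45%, 9.96% and 28.8% for the 3 comparisons in control cells named first, 5.17% for the 1st step against conventional RNA and 96.7% for the 2nd step against hiAGPC under stress, and 87.1% and 87.5% for stress against control in the 1st step and conventional RNA. Among the 46 members free of other genes, 0% were called in the 3 control comparisons and in the 2nd step against hiAGPC under stress. In the control libraries nearly all of these 46 were under 0.1 FPKM, where the added 0.1 puts a call out of reach. Leaving out 1 library gave 2.21% to 7.38% for the 2nd step against hiAGPC under stress (4.8% as reported), the extremes being without replicate 2 and without replicate 1 of stress hiAGPC. The replicate block moved no count of calls by over 1.5 times, with 6.64% for the 2nd against the 1st step in control cells.

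A threshold of 50 kb gave 488 members and 150 kb gave 157, against 271. The median length in hiAGPC was 75 to 90 kb and that in the 2nd step 160 to 180 kb with a replicate left out, and the latter was 145 kb in members free of other genes. Of 176 values recomputed, 137 stayed close to the reported one and 39 moved. Some of the 137 could hardly move, since the replicate block and a fit without the intensity trend left log2 fold changes unchanged. The tally is therefore no measure of robustness. Of the 22 calls of single genes in control cells, 22 remained with a pseudocount of 0.01, 2 with 1, 17 after centring and 22 with the block, and no sign changed. What depth limits is unknown, as no counts were analysed. Control values were low, with medians of 0.02 to 0.04 FPKM in values rounded to 0.01.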

Other observations

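Long DoGs were spread over 23 chromosomes. Chromosome 1 held 39 of them, chromosome 17 held 30, and chromosomes 12 and 19 held 17 each, which is 10.7%, 12.3%, 10.9% and 9.19% of the genes with FPKM on each, against 8.64% over all. Chromosome X held 11 of 90 (12.2%), chromosome 2 held 6 of 198 (3.03%), chromosome 6 held 8 of 179 (4.47%) and chromosome 7 held 8 of 154 (5.19%). These shares were not tested. The regions of long DoGs also crossed a coding gene on the opposite strand in 72.0%, against 62.2% of the shorter DoGs and 58.0% of all.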
